A study of Rattus norvegicus with 8 samples.

Results

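The enzymes that make, use and regenerate glutathione and thioredoxin, together with superoxide dismutases and classical targets of the transcription factor Nfe2l2, were compared between male and female rat kidney cortex. The group was defined by gene symbol, not by measured values: every array probe whose RefSeq accession belonged to a rat gene with a symbol that starts with Gst, Mgst, Gpx, Prdx, Txn or Sod followed by a letter or digit, and in addition Nqo1, Hmox1, Gclc, Gclm, Gsr, Gss, Srxn1 and Nfe2l2. Named probes were found for 64 such genes (68 probes), the brightest probe of each gene was used, and 60 genes exceeded the background clearly on 4 or more of the 8 arrays, out of 11825 of 14737 named genes on the array that met the same filter. All 60 were above background on all 8 arrays. The 4 genes left out were Txndc2, above background on 1 array, and Gpx5, Gstt4 and Txndc8, above background on none. The dimmest members kept were Gstm6 and Mgst2, with a mean signal intensity of 35.4 and 65.7 against 19.6 for Txndc2. Gsr, the glutathione reductase, was not analysed here, since no probe carried its name.

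The animals were 4 male and 4 female adult rats of the outbred Han Wistar stock, given in the labels as RCCHanTMWIST, and none was treated. Each rat gave 1 slice of renal cortex, and its total RNA went, with Cy3 as the label, onto an array of its own. The study asked which genes show a sex-dependent expression in this tissue. Levels are given below as log2 signal above or below the 75th percentile of that array, so that a value of 1 means 2 times that percentile, and a log2 fold-change is always male minus female. A level can be compared between rats for the same probe, but not between probes.

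Glutathione is a small thiol that is made from glutamate, cysteine and glycine, and the kidney cortex both makes it and breaks down what reaches it from blood and tubular fluid. Glutathione S-transferases couple it to reactive compounds so that these can be excreted, and glutathione peroxidases spend it to reduce peroxides. Most peroxiredoxins do the same with thioredoxin, which thioredoxin reductase restores at the expense of NADPH. Superoxide dismutases turn superoxide into peroxide, and Nfe2l2 (NRF2) switches on many of these genes in response to oxidants and electrophiles.

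The 8 arrays shared 1 slide, and both sexes were spread evenly over its 2 rows and 4 columns. Between 73.8% and 79.1% of the probes passed the background test on an array, and no saturation was seen. All 8 markers of proximal tubule segments 1 and 2 were above background, and their summed level ranged from 157 to 169 times the 75th percentile in females and from 160 to 164 in males (exact permutation test, p = 0.743). Of these 8, Cubn passed and was lower in males (-0.59, adjusted p = 0.00452), while Gatm (0.33, adjusted p = 0.0706) and Slc5a12 (0.25, adjusted p = 0.104) had every male above every female and did not pass. Female replicate 4 stood nearer to the males than the other females did for several genes, as given below. Slices of cortex hold several cell types, so fewer cells of a type and less RNA per cell cannot be told apart.

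Of the 60 members, 4 were higher expressed in males (Gsta6, Gsta3, Gsta1 and Gstt2) and 2 in females (Sod3 and Gpx8) at an adjusted p below 0.05 in limma. These 6 are 10% of the members, beside 8.06% of all 23425 probes tested (3.39% higher in males and 4.67% higher in females), so at this threshold the share was near the background. At a two-sided unadjusted p below 0.05 there were 25 members (41.7%), beside 25.6% of all probes. The sexes did not overlap for 19 members (31.7%), beside 18.5% of all probes. Every male was above every female for 10 of them (16.7%, beside 7.47%) and every female above every male for 9 (15%, beside 11%). By these looser measures the members' shares were above those of all probes, which is a description and was not tested. The gene families were chosen with earlier results of these data known, so the share of all probes is no independent comparison. With a log2 fold-change of at least 1 as a further condition, 1 member passed in males (Gsta6, background 0.798%) and 0 in females (background 1.09%), where Sod3 missed by its size (-0.99) and Nqo1 by its adjusted p (0.0519). The median log2 fold-change of the members was 0.01, with 31 above 0 and 29 below. That of all probes was -0.04, with 9738 above 0 and 13687 below. For 38 members (63.3%, beside 69.7% of all probes) the fitted difference was less than 0.25 on the log2 scale.

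**Figure D1:**
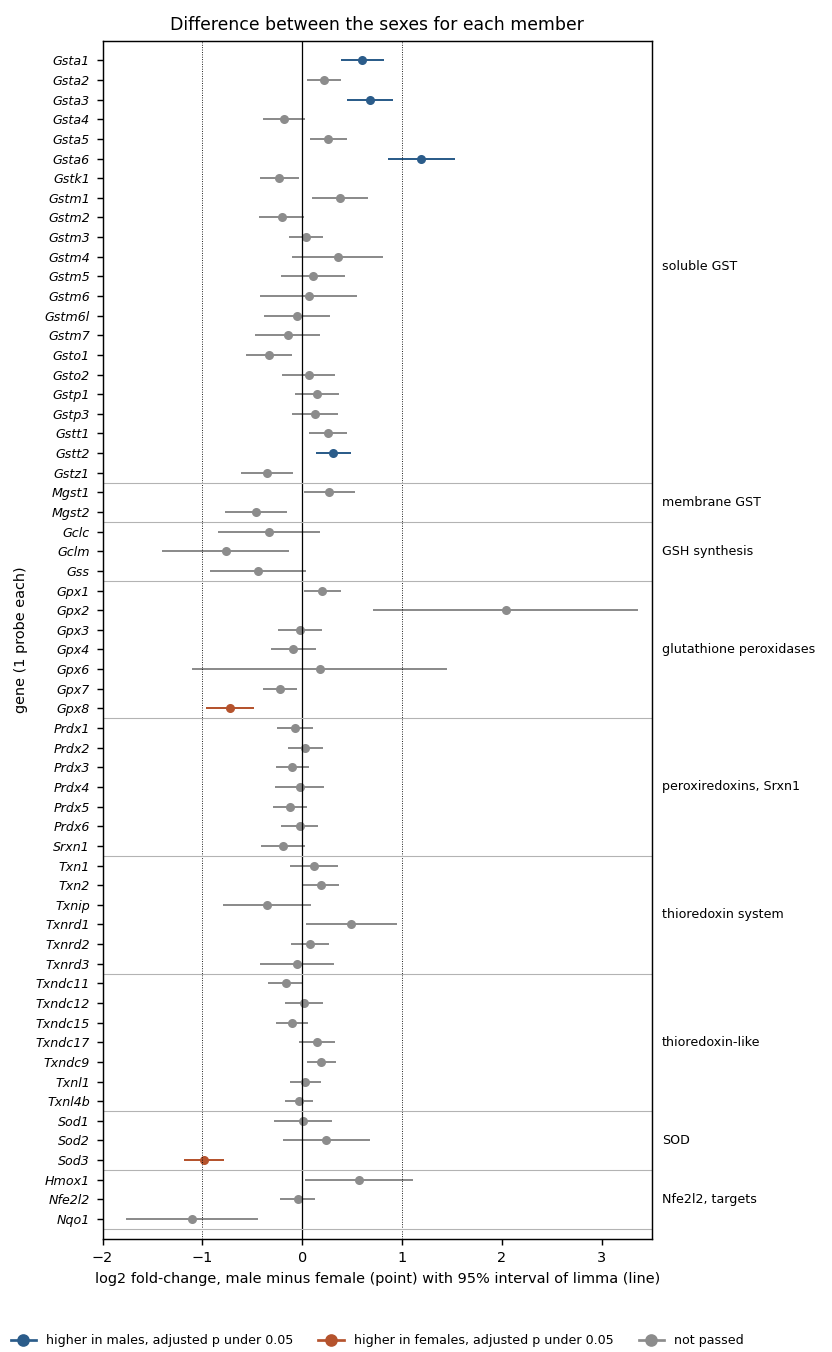
Log2 fold-change (male minus female) of each of the 60 members on the horizontal axis, with limma's 95% interval as a line and genes grouped by role. Blue and red points are the 4 members higher in males and the 2 higher in females at an adjusted p below 0.05, grey points did not pass, and dotted lines mark a log2 fold-change of 1 in either direction; the intervals of Gpx2 and Gpx6 are the widest.

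**Figure D2:**
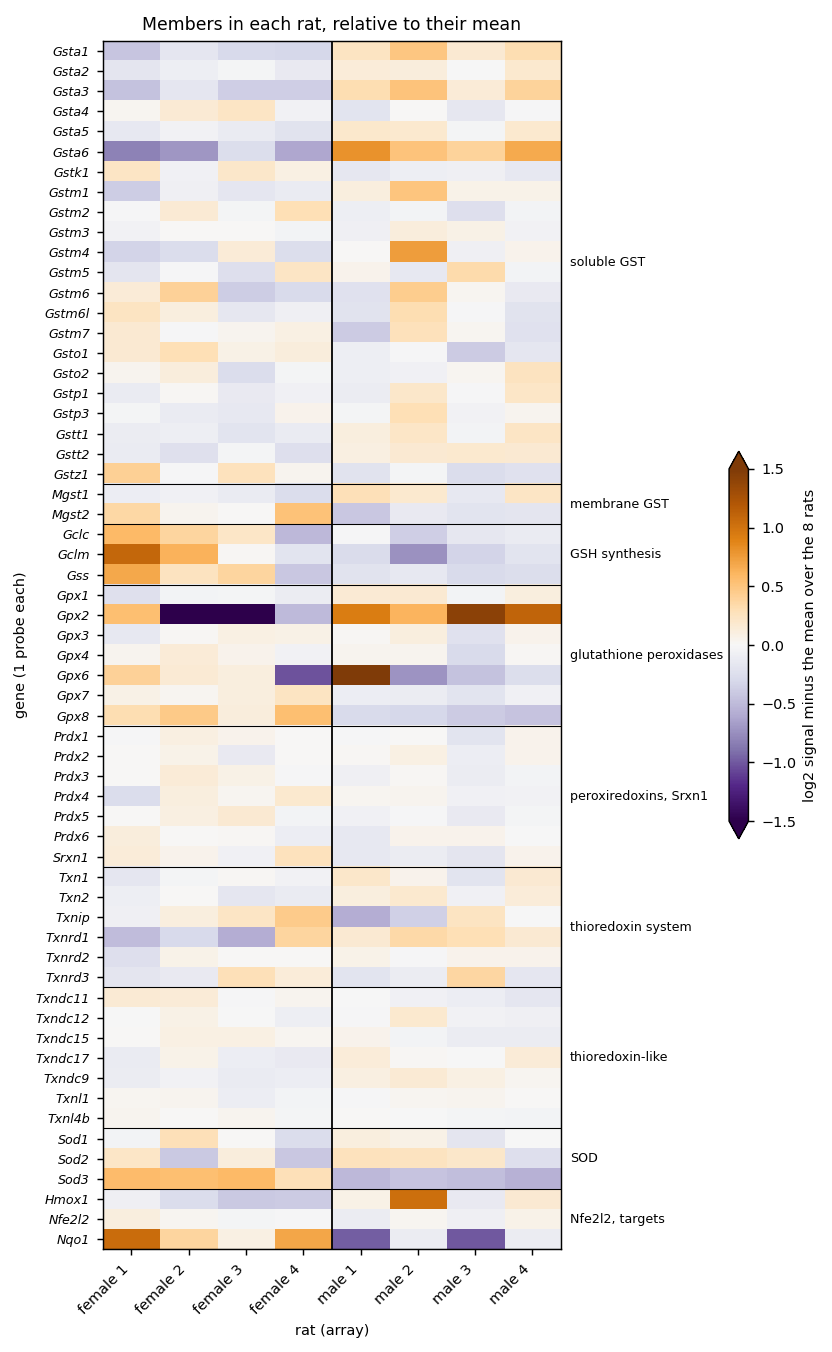
Log2 signal of each member in each of the 8 rats minus its mean over the rats, as colour (orange above, purple below the mean; differences beyond 1.5 take the end colour). Sod3, Gpx8 and the alpha class transferases Gsta1, Gsta3 and Gsta6 split by sex, the peroxiredoxin rows are nearly blank, and female replicate 4 resembles the males for Gclc, Gclm, Gss and Txnrd1.

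The glutathione S-transferases with a Gst symbol, soluble enzymes mainly of the cytosol apart from the mitochondrial and peroxisomal Gstk1, held all 4 members that were higher in males. Of 22 tested, 15 had a log2 fold-change above 0, beside 9738 of all 23425 probes. While 18 did not pass, 0 passed in females and 4 in males, beside 4.67% and 3.39% of all probes. Of these, Gsta6, Gsta3 and Gsta1 belong to the alpha class, whose enzymes conjugate electrophiles, reduce lipid hydroperoxides and, in some members, isomerise steroids, and whose subunits are abundant in proximal tubule and liver. In the RefSeq gene order of the rat genome build GRCr8, Gsta3, Gsta1 and Gsta6 are direct neighbours on chromosome 9, and the other alpha members measured, Gsta4, Gsta5 and Gsta2, are direct neighbours on chromosome 8. The promoter windows of Gsta3, Gsta1 and Gsta6 are shown here, since the brightest probe of each was higher in males. Whether they share a control was not tested. Each window runs from 250 bases before to 50 bases after the RefSeq start, 5′ to 3′ on the strand of the gene (RefSeq, GRCr8). Capitals mark the letters TGACNNNGC on either strand, the core of the antioxidant response element to which Nfe2l2 binds. The windows are chr9:31154739-31155038 (+) for Gsta3, chr9:31216483-31216782 (-) for Gsta1 and chr9:31275302-31275601 (-) for Gsta6.
Gsta3: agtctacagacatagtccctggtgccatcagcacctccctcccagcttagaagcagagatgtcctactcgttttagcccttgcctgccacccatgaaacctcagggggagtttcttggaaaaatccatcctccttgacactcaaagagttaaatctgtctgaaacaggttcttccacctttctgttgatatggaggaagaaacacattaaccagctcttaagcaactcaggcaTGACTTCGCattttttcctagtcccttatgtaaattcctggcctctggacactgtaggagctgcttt
Gsta1: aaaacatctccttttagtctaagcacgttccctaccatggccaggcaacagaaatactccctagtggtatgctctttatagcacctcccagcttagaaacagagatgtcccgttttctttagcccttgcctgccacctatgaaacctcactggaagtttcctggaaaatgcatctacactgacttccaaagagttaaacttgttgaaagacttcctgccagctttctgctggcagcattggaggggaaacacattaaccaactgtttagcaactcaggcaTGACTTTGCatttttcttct
Gsta6: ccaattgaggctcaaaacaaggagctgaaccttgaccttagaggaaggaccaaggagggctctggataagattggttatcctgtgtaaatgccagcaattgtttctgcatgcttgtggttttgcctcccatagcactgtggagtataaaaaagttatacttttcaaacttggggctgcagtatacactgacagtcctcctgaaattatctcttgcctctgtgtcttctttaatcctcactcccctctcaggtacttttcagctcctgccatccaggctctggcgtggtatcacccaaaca

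The Gsta3 and Gsta1 windows were alike, with 204 identical letters of 242 aligned (84.3%), and each held the motif once. Counted from the start site, it was read as TGACTTCGC from position -17 in Gsta3 and as TGACTTTGC from position 31 in Gsta1. In both it directly followed the letters agcaactcaggca, so the positions differ with where RefSeq places each start. No match was found in the Gsta6 window, which shared 152 of 209 aligned letters with Gsta1 (72.7%). It shared 167 of 219 with Gsta5 on chromosome 8 (76.3%), so 72.7% does not set the neighbours apart. Letters opposite gaps were not counted. The table lists a further Gsta3 window, chr9:31166793-31167092 (+), without a match.

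Gsta6 showed the largest difference of the members that passed. Its log2 signal was 0.23, 0.34, 0.80 and 0.43 in females 1 to 4 and 1.85, 1.56, 1.44 and 1.73 in males 1 to 4. Every male lay above every female, and female replicate 3 was the nearest. The log2 fold-change was 1.19 ± 0.14 (SE, n = 4 per sex), a 2.29-fold higher mean in males, with an adjusted p of 0.00256.

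Gsta3 measured 4.17, 4.45, 4.24 and 4.25 in females and 4.93, 5.12, 4.77 and 5.005 in males. The groups did not overlap, and female replicate 2 and male replicate 2 were the highest of their sex. The fitted log2 fold-change was 0.68 ± 0.10 (SE, n = 4 per sex; adjusted p = 0.00617). Gsta3 has a further, dimmer probe that went the other way, with 1.00, 0.98, 1.48 and 1.00 in females and 0.69, 0.20, 0.76 and 0.61 in males. Every female lay above every male for that probe, with a log2 fold-change of -0.55 ± 0.16 and an adjusted p of 0.0709. The difference between both probes was larger in every male than in every female, by 1.23 on the log2 scale. The direction given for Gsta3 is therefore that of the brighter probe. Which transcript each probe reads, and whether probes of such similar genes read each other's RNA, was not tested.

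Gsta1 measured 5.03, 5.28, 5.15 and 5.14 in females and 5.69, 5.93, 5.62 and 5.76 in males. Again all males were above all females, and again replicate 2 was the highest of both sexes. Its log2 fold-change was 0.60 ± 0.09 (SE, n = 4 per sex; adjusted p = 0.00716). Within rats, the level of Gsta1 relative to Gsta3 lay between 0.83 and 0.91 in females and between 0.76 and 0.86 in males, which overlapped (exact permutation p = 0.0571).

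The alpha members on chromosome 8 did not pass. Their log2 fold-change was 0.22 ± 0.07 for Gsta2 (adjusted p = 0.0987), 0.26 ± 0.08 for Gsta5 (0.0745) and -0.18 ± 0.09 for Gsta4 (0.221). For Gsta2 and Gsta5 every male was nevertheless above every female, and both passed with quantile normalization, at 0.31 and 0.35. Gsta5 also passed without male replicate 3, the lowest male, at 0.32 with an adjusted p of 0.0434. It passed in this 1 only of the 8 fits that left out a rat. Because that rat was singled out by these same values, this p-value is no independent support. In probe signal, Gsta6 rose more than each of these chromosome 8 members. Whether these brighter probes (mean intensity 223155, 219273 and 130788 for Gsta2, Gsta5 and Gsta4, against 13747) respond to the same degree was not tested. The level of Gsta6 relative to Gsta2, Gsta5 and Gsta4 was higher in every male than in every female, by 0.98, 0.93 and 1.38 (exact permutation p = 0.0286 each, adjusted 0.0429 over the 9 comparisons within rats). With 4 rats against 4, 0.0286 is the smallest p this test can give. Because Gsta6 already separated the sexes by itself, these p-values are no independent support for its difference. Relative to Gsta1 and Gsta3 the difference was 0.59 and 0.52 and the sexes overlapped (exact permutation p = 0.0571 each).

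Gstt2, a theta class transferase, was the weakest call. Its log2 signal was 2.22, 2.11, 2.31 and 2.10 in females and 2.44, 2.51, 2.52 and 2.51 in males. The sexes did not overlap, and the spread among males was small. The log2 fold-change was 0.31 ± 0.07 (SE, n = 4 per sex; adjusted p = 0.0363). It remained below 0.05 in 10 of 21 alternative settings and in 1 of the 8 in which a rat was left out, that without female replicate 3. Its relative Gstt1 showed a fitted log2 fold-change of 0.26 (adjusted p = 0.0850), again with every male above every female.

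The other soluble transferases did not pass. Every female was above every male for Gsto1, an omega class enzyme that also reduces dehydroascorbate (-0.33, adjusted p = 0.0725; it passed with quantile normalization), for Gstz1, which degrades maleylacetoacetate in tyrosine breakdown (-0.35, adjusted p = 0.0900), for Gstk1 (-0.23) and for Gstm2 (-0.21). Of the mu class, whose 8 measured members are Gstm1 to Gstm7 and Gstm6l, Gstm1 alone had all males above all females (0.37 ± 0.12, adjusted p = 0.0938). The other 7 lay between -0.21 and 0.35. The pi class members Gstp1 (0.15) and Gstp3 (0.12) and the omega class Gsto2 (0.06) overlapped between the sexes.

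Of the membrane-bound transferases, which act in the endoplasmic reticulum and mitochondria, Mgst1 showed a fitted log2 fold-change of 0.27 ± 0.11 (adjusted p = 0.157) and Mgst2, which can also make leukotriene C4, one of -0.46 ± 0.13 (adjusted p = 0.0680). For Mgst2 every female was above every male, and for Mgst1 male replicate 3 fell among the females. Neither passed.

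**Figure D3:**
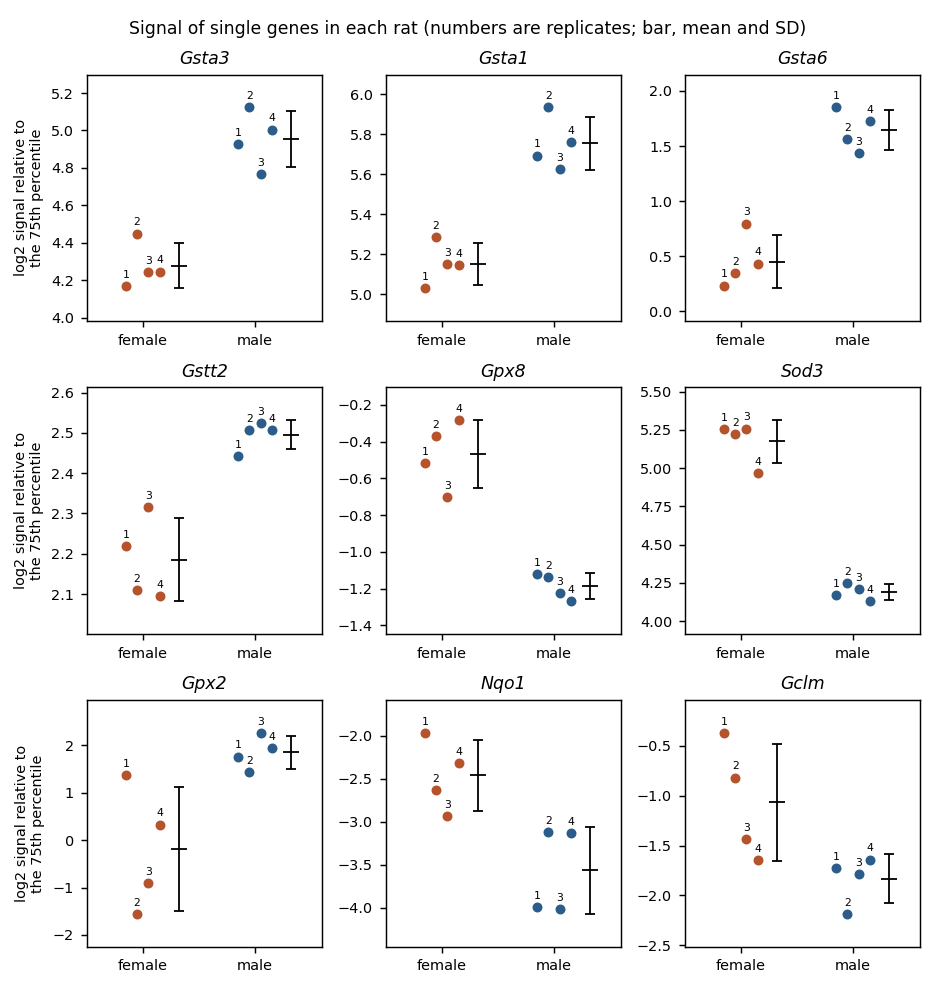
Log2 signal relative to the array's 75th percentile in each rat for 9 members (points, numbered by replicate; the bar beside them is the mean with SD, n = 4 per sex), each panel with its own vertical axis. The sexes are apart for the 6 members that passed, Gpx2 varies by almost 3 units among females, and female replicate 4 of Gclm lies within the range of the males.

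Glutathione synthesis was measured by 3 genes, and none passed in limma. At an unadjusted p below 0.05 there was 1, Gclm, beside 25.6% of all probes. Gclc and Gclm encode the catalytic and the modifier subunit of glutamate-cysteine ligase, the rate-limiting step, and Gss adds the glycine. Gclc measured 5.42, 5.22, 5.06 and 4.33 in females and 4.82, 4.46, 4.68 and 4.72 in males. Females 1 to 3 were above every male, whereas female replicate 4 was the lowest rat of all. The fitted log2 fold-change was -0.33 ± 0.22 (SE, n = 4 per sex; adjusted p = 0.380).

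Gclm measured -0.37, -0.82, -1.43 and -1.65 in females and -1.72, -2.19, -1.78 and -1.64 in males. Here female replicate 4 lay within the male range as well. Its log2 fold-change was -0.77 ± 0.27 (adjusted p = 0.126). Gss measured 1.84, 1.40, 1.54 and 0.74 in females and 0.95, 1.01, 0.87 and 0.91 in males. The males were close together, females 1 to 3 were above them, and female replicate 4 was below them. This gave a log2 fold-change of -0.45 ± 0.20 (adjusted p = 0.215).

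Without female replicate 4, 2 of the 3 passed: Gclc at -0.56 (adjusted p = 0.0388) and Gss at -0.66 (adjusted p = 0.0170), while Gclm had -0.96 (adjusted p = 0.0685). Of the 8 fits that each left out a rat, Gclc and Gss passed in this 1 only. Female replicate 4 was singled out by these same values, so these p-values are no independent support for a difference. The same rat stood apart in markers of proximal tubule segment 3, the straight part of the tubule. The summed level of all 6 markers was 115, 108, 103 and 74.5 times the 75th percentile in females 1 to 4, and 72.4, 65.2, 64.1 and 69.2 in males 1 to 4 (exact permutation test, p = 0.0286). This p-value is the smallest the test can give and was not adjusted over the marker lists. All 6 of these markers were above background, and 2 passed, both higher in females (Slc22a24 at -2.34 and Slc5a10 at -1.49). Their part in the levels of Gclc, Gclm and Gss was not tested.

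Of the 7 glutathione peroxidases, 1 passed, beside 8.06% of all probes, and it was higher in females. Gpx8 is a membrane protein of the endoplasmic reticulum that uses peroxide in protein folding. Its log2 signal was -0.52, -0.37, -0.70 and -0.28 in females and -1.12, -1.14, -1.23 and -1.27 in males. The groups were well apart and the males lay close together. The log2 fold-change was -0.72 ± 0.10 (SE, n = 4 per sex; adjusted p = 0.00513), a 1.65-fold higher mean in females. The most similar family member, Gpx7, which resides in the same compartment, pointed the same way but did not pass (-0.23 ± 0.07, adjusted p = 0.0858), again with every female above every male. The level of Gpx8 relative to Gpx7 was lower in every male than in every female, by 0.49 (exact permutation p = 0.0286, adjusted 0.0429). Gpx8 already separated the sexes by itself, so this p-value is no independent support for its difference.

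Gpx2, a peroxidase known mainly from gut epithelium and from the Nfe2l2 response, had the largest fitted difference of all members but did not pass. Its log2 signal was 1.37, -1.56, -0.90 and 0.32 in females and 1.76, 1.44, 2.26 and 1.93 in males. All males were above all females, yet female replicate 1 nearly reached the lowest male. The fitted log2 fold-change was 2.04 ± 0.57 (SE, n = 4 per sex; adjusted p = 0.0681), and the SD within a sex, 0.95, was larger than that of 99.0% of all probes. Without female replicate 1 the value was 2.56 with an adjusted p of 0.0191. Gpx2 passed in this 1 only of the 8 fits that left out a rat. As that rat was singled out by these same values, this p-value is no independent support for a difference. A further probe of the gene gave 0.34, -2.59, -1.93 and -0.80 in females and 0.66, 0.54, 1.33 and 0.87 in males, the same order of rats within the females, and a log2 fold-change of 2.10 (adjusted p = 0.0622). The promoter window, chr6:101229984-101230283 (-), held the motif just before the start site, read on the opposite strand as TGACTTAGC from position -13, and is shown because this gene had the largest difference.
Gpx2: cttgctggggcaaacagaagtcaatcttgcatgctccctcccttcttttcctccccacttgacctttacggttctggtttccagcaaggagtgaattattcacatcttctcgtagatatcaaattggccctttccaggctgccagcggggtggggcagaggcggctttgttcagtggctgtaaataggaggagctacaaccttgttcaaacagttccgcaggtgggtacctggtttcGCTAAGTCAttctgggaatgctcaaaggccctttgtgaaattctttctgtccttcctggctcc

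The other peroxidases did not pass. Gpx1, the main cytosolic form, showed a fitted log2 fold-change of 0.20 ± 0.08 (adjusted p = 0.152), and it passed with quantile normalization, with or without normexp, and in the authors' log2 values. Gpx3, the form that proximal tubule cells secrete into plasma, had -0.02 ± 0.09 (adjusted p = 0.909), with a 95% interval from -0.23 to 0.19. Gpx4, which protects membrane lipids, had -0.09 ± 0.09, and its further probe -0.07 (3 males, 1 array value missing). Gpx6 varied most: from -2.73 to -1.31 in females and from -2.43 to 0.04 in males, with male replicate 1 far above the rest. Its log2 fold-change of 0.17 ± 0.55 became -0.38 without that rat, and no direction can be read from it.

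Peroxiredoxins, most of which reduce peroxides with electrons from thioredoxin, hardly differed. Their role had the smallest median absolute log2 fold-change of those compared here (0.08, beside 0.15 over all probes). None of the 6 measured (Prdx1 to Prdx6) passed, nor did Srxn1, the sulfiredoxin that repairs some of them. At an unadjusted p below 0.05 there were 0 as well. All 7 overlapped between the sexes and their log2 fold-changes lay between -0.19 (Srxn1) and 0.03 (Prdx2). The SD within a sex had a median of 0.09 over these 7 genes, beside 0.16 over all probes. Their intervals were narrow: for Prdx1 the 95% interval was -0.25 to 0.10, for Prdx3, the mitochondrial form, -0.26 to 0.05, and for Prdx5 -0.28 to 0.04.

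Of the thioredoxin system, 0 of 6 passed. At an unadjusted p below 0.05 there were 2 (Txn2 and Txnrd1), both with the males higher, beside 25.6% of all probes. Cytosolic Txn1 showed a fitted log2 fold-change of 0.12 ± 0.10 and mitochondrial Txn2 of 0.18 ± 0.08 (adjusted p = 0.186). Txnrd1, the cytosolic reductase, measured -0.80, -0.62, -0.90 and 0.05 in females and -0.15, 0.02, -0.03 and -0.15 in males. Females 1 to 3 were below every male and female replicate 4 was above them all. Its log2 fold-change was 0.49 ± 0.19 (adjusted p = 0.159), and without female replicate 4 it was 0.70 with an adjusted p of 0.00664. Txnrd1 passed in this 1 only of the 8 fits that left out a rat. Since that rat was singled out by these same values, this p-value is no independent support for a difference. The further probe of Txnrd1 gave 0.36 (adjusted p = 0.105) and placed female replicate 4 with the males too. Txnip, which binds and blocks thioredoxin, had -0.36 ± 0.19 (adjusted p = 0.276).

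The 7 thioredoxin-like proteins (Txndc9, Txndc11, Txndc12, Txndc15, Txndc17, Txnl1 and Txnl4b) did not pass, and all lay within 0.25 of no change. The smallest adjusted p was that of Txndc9, which is linked to chaperonin-assisted folding, with every male above every female and a log2 fold-change of 0.19 ± 0.06 (adjusted p = 0.0916). Txnl4b, a spliceosome component despite its name, had an SD within a sex of 0.03, smaller than that of all but 0.0555% of the probes.

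**Figure D4:**
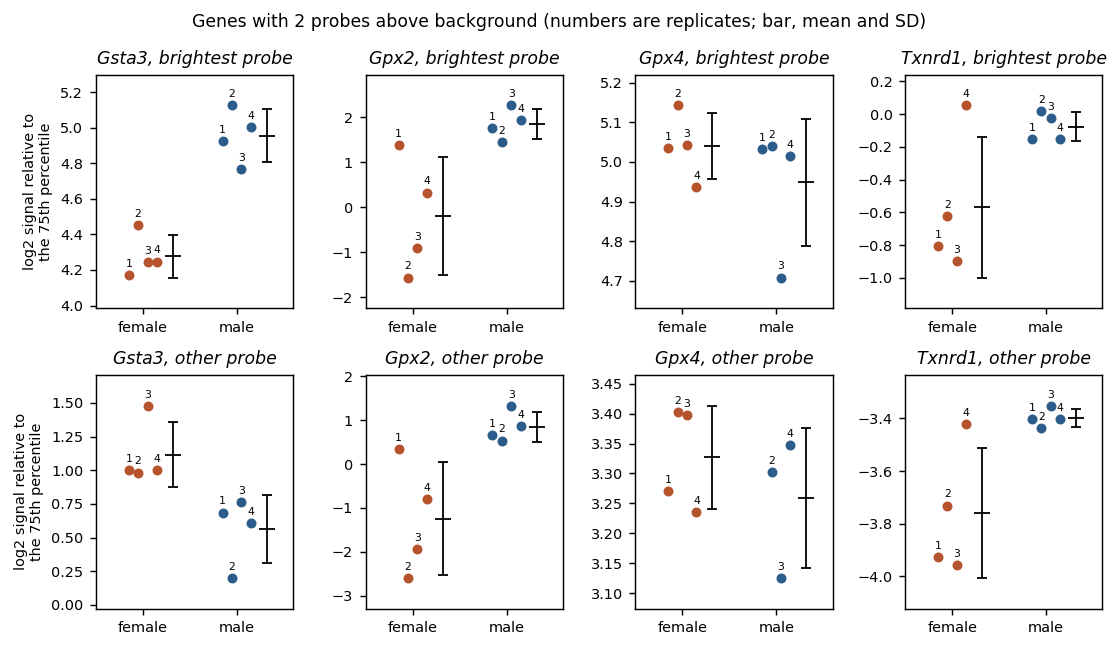
Log2 signal relative to the array's 75th percentile in each rat for the 4 members with a further probe above background, the brightest probe above and the other below (points, numbered by replicate; bar, mean with SD). Both probes of Gpx2 and both of Txnrd1 rank the females alike, whereas the probes of Gsta3 point in opposite directions; male replicate 1 has no value for the other Gpx4 probe.

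Of 3 superoxide dismutases, 1 passed, beside 8.06% of all probes, and it was higher in females. Sod3 is the secreted, extracellular copper-zinc enzyme. Its log2 signal was 5.25, 5.22, 5.26 and 4.97 in females and 4.17, 4.25, 4.21 and 4.13 in males. Each female was above each male by more than the whole spread within either sex, and female replicate 4 was the lowest female. This gave a log2 fold-change of -0.99 ± 0.08 (SE, n = 4 per sex), a 1.98-fold higher mean in females, with the smallest adjusted p of all members, 0.000676.

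The intracellular enzymes did not share it. Sod1, the cytosolic form, measured 5.55, 5.87, 5.59 and 5.33 in females and 5.70, 5.67, 5.41 and 5.58 in males. The sexes overlapped fully, with a log2 fold-change of 0.00 (95% interval -0.28 to 0.28, adjusted p = 0.990). Sod2, the mitochondrial manganese form, measured 2.02, 1.40, 1.93 and 1.38 in females and 2.06, 2.06, 2.01 and 1.56 in males. Male replicate 4 lay among the females, and the log2 fold-change was 0.24 ± 0.19 (adjusted p = 0.469). Sod3 relative to Sod1 and to Sod2 was lower in every male than in every female, by 0.99 and 1.23 (exact permutation p = 0.0286 each, adjusted 0.0429). Since Sod3 already separated the sexes by itself, these p-values are no independent support for its difference.

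Nfe2l2 itself measured 2.78, 2.70, 2.64 and 2.65 in females and 2.55, 2.70, 2.59 and 2.74 in males. The sexes overlapped, and the log2 fold-change was -0.05 ± 0.07 (adjusted p = 0.720). Its 2 classical targets did not pass and pointed in opposite directions. Nqo1, a quinone reductase, measured -1.97, -2.63, -2.93 and -2.32 in females and -3.99, -3.12, -4.02 and -3.13 in males. Every female was above every male, and males 2 and 4 were the nearest. The log2 fold-change was -1.10 ± 0.28 (SE, n = 4 per sex), with an adjusted p of 0.0519, just above the threshold. It was below 0.05 in 4 of 21 alternative settings.

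Hmox1, the inducible heme oxygenase, measured -3.39, -3.58, -3.73 and -3.71 in females and -3.24, -2.30, -3.45 and -3.15 in males. Male replicate 2 stood well above all other rats, and male replicate 3 lay within the female range. The fitted log2 fold-change was 0.57 ± 0.23 (adjusted p = 0.169).

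A promoter window was listed for 51 of the 60 members, and the letters TGACNNNGC occurred on either strand in windows of 18 of them (35.3%), beside 13.1% of all 27457 genes with a window of 300 bases in the table. Counted by window, these were 18 of 56 (32.1%), beside 12.1% of all 33469 windows. Windows of Sod3, Gpx8 and Gstt2 were not analysed here. Among the members with a match were Gclm (TGACTAAGC), Gstp1 and Prdx1 (both TGACTCAGC), Txnrd1 (TGACAAAGC) and Gsta2 (TGACCTAGC). Of the members that passed, Gsta1 and Gsta3 held it and Gsta6 did not, and the Nqo1 window held none. The windows reach 250 bases before the start site, and sequence further away was not searched. A match describes the letters only.

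The rest of the glutathione and NRF2 network was read from 6 lists of 120 genes, of which 110 were tested. In each direction 10 genes passed, together 20 of 110, beside 8.06% of all probes. The lists were chosen with earlier results of these data known, so this is no independent comparison with the background. The median log2 fold-change was -0.02, beside -0.04 over all probes. Over 21 alternative settings the number that passed ranged from 4 to 14 in males and from 4 to 15 in females.

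Cysteine supply and glutathione turnover had 7 of 26 genes pass, beside 8.06% of all probes. Of the 7, 3 were higher in males and 4 in females. Cth, cystathionine gamma-lyase, which releases cysteine from cystathionine, measured 1.05, 1.00, 0.82 and 0.39 in females and -0.37, -0.22, -0.24 and 0.01 in males. The sexes did not overlap, and female replicate 4 was the nearest to the males. Its log2 fold-change was -1.02 ± 0.15 (adjusted p = 0.00717). Dpep1, a brush border dipeptidase that splits cysteinylglycine, was lower in males (-0.67, adjusted p = 0.0362), as was Gnmt, which consumes S-adenosylmethionine (-0.53, adjusted p = 0.0109). Slc1a1, a transporter of glutamate and cysteine, was higher in males (0.65, adjusted p = 0.0238).

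In mercapturate formation and conjugate export 2 of 15 genes passed, beside 8.06% of all probes, and both were higher in males. They were the exporters Abcg2 (0.65, adjusted p = 0.0126) and Abcc2, which carries glutathione conjugates (0.40, adjusted p = 0.00627). At an unadjusted p below 0.05 there were 2 with males above and 4 with females above, beside 25.6% of all probes in either direction. The latter 4 were Kyat3, Abcc3, Nat8b and Abcc5. Of these, Nat8b (-0.46, adjusted p = 0.0611) and Abcc5 (-0.31, adjusted p = 0.0590) had every female above every male. Of 10 glutaredoxins and methionine sulfoxide reductases 2 passed, beside 8.06% of all probes, and both were higher in males. These were Glrx, the cytosolic glutaredoxin (0.64, adjusted p = 0.00265), and Glrx5, which serves iron-sulfur cluster assembly (0.28, adjusted p = 0.0397). The 4 genes that passed separated the sexes fully.

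Of 22 other peroxide, superoxide and quinone enzymes, 1 was higher in males and 2 in females, beside 3.39% and 4.67% of all probes. Cbr1, a carbonyl reductase of quinones and prostaglandins, measured 2.37, 3.04, 1.76 and 1.76 in females and 0.71, 0.42, 0.71 and 0.65 in males. No male came near the lowest female, and its log2 fold-change of -1.62 ± 0.27 (adjusted p = 0.0109) was the largest of these lists among genes that passed. The metallothionein Mt3 was lower in males (-0.73) and Blvrb, a biliverdin and flavin reductase, higher (0.46). NADPH supply had 1 of 15 genes pass, beside 8.06% of all probes: the malic enzyme Me2, lower in males (-0.61, adjusted p = 0.0283). Its probe was dim, with a mean signal intensity of 41.2, and above background on 7 arrays (4 female, 3 male).

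Of 22 NRF2 regulators and common targets, 2 were higher in males and 3 in females, beside 3.39% and 4.67% of all probes. Osgin1, an oxidative stress-induced growth inhibitor, measured -0.28, -0.26, -0.67 and -1.53 in females and -1.85, -1.83, -1.90 and -1.71 in males. Female replicate 4 again lay next to the males. This gave a log2 fold-change of -1.13 ± 0.26 (adjusted p = 0.0361). Bach2, a repressor related to Bach1, and Aldh3a1, an aldehyde dehydrogenase, were lower in males (-0.73 and -0.68), and Akr7a3, an aflatoxin aldehyde reductase, was higher (0.46, adjusted p = 0.0109). Akr1b8, an aldose reductase relative, had the largest fitted value (2.08 ± 0.68) but did not pass (adjusted p = 0.103); it is named because it stands apart in the plot of these lists.

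**Figure D5:**
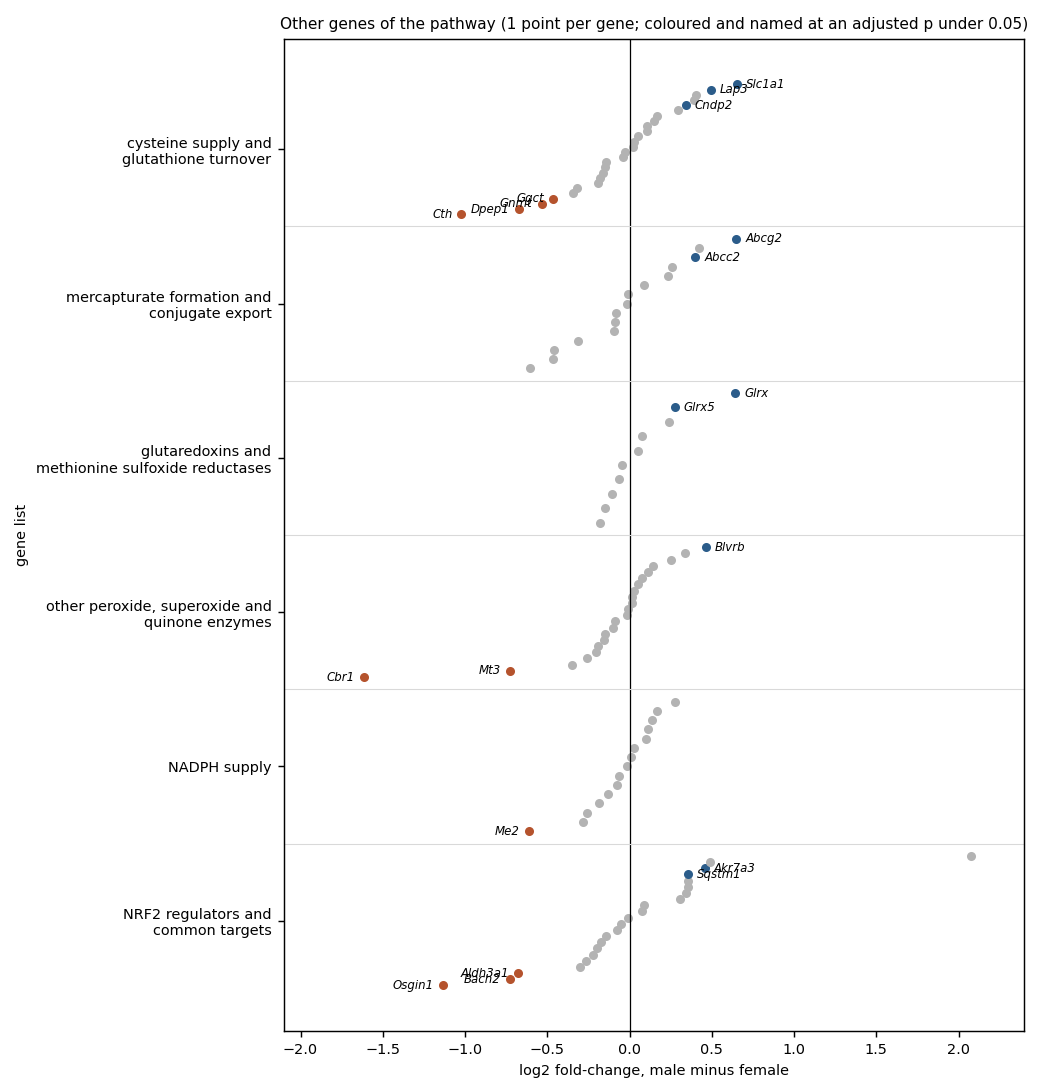
Log2 fold-change (male minus female) of the 110 other genes of the pathway, 1 point per gene, in 6 lists on the vertical axis and sorted within each list. Blue and red points with names are the genes that passed at an adjusted p below 0.05, 10 with males above and 10 with females above; the grey point near 2 is Akr1b8.

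Some markers of other cell types differed between the sexes as well. Of 61 markers tested in 12 lists, 0 were higher in males and 6 higher in females, beside 3.39% and 4.67% of all probes. These 6 include Cubn and the segment 3 markers given above. At an unadjusted p below 0.05 there were 4 and 13, beside 2279 and 3708 of 23425 probes (25.6% in either direction). Taken over both directions, the markers were near the share of all probes. By direction they leaned to females: 44 of 61 had a log2 fold-change below 0, beside 13687 of 23425 probes. Beside segment 3, the summed level of the 4 thick ascending limb markers was 75.4 to 85.4 times the 75th percentile in females and 63.0 to 69.4 in males, with Cldn16 and Egf passing, and that of the 5 glomerulus markers 12.2 to 13.0 and 10.5 to 11.0, with Podxl passing (exact permutation p = 0.0286 each). That p is the smallest this test can give, and it was not adjusted over the 12 lists. The sexes overlapped for the other 9 lists (exact permutation p from 0.114 to 0.886). Among them were red blood cells (144 to 194 in females, 124 to 191 in males) and immune cells (36.1 to 44.6 and 35.3 to 48.4). The adrenal markers Cyp11b1 and Star, the urothelial marker Upk2 and the distal convoluted tubule marker Pvalb were above background on no array. The part of these cell types in the difference of Sod3, Gpx8 or the alpha class transferases was not tested.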

How the data were processed

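The authors deposited signal intensities of the 62976 spots of every array from Feature Extraction 10.7.3.1, background-subtracted and not normalized between arrays per the file headers, with background flags, and a table of normalized log2 values, for which the submitters' processing notes name limma 3.8.2. Here, outlier spots (0.440% to 1.33% of an array) were left out, log2 intensity minus the array's 75th percentile of non-control spots was taken, spots were averaged per probe, and 23425 probes well above background on at least 4 arrays were fitted with limma 3.58.1 (lmFit, eBayes; R 4.3.3) as male minus female, with Benjamini-Hochberg adjustment over all of them. The fit was tested on simulated data. Single values were compared by two-sided exact permutation over the 70 assignments of 4 and 4. Precision is limited by 4 arrays per sex, each array being a separate rat.

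Groups came from the sample labels. Genes were named through RefSeq accessions. Named were the members that passed, Nfe2l2, its classical targets, synthesis genes and dismutases, and of each further list the genes that passed, at most the 4 of largest change; other members, Akr1b8, Kyat3, Abcc3, Nat8b, Abcc5 and the cell type markers were chosen after their values were seen. The members and lists were chosen with earlier results of these data known. Promoters came from RefSeq (GRCr8), searched on both strands and aligned with Biopython 1.88. Alternatives were another normalization, background correction, filter, prior, weights, blocks, probe choice, and leaving out each rat; the slide column was chosen after seeing the data. Plots were drawn with matplotlib 3.10.9 in Python 3.11.15.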

Additional observations from a re-analysis of the deposited data

Results flagged for a closer look

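In 44 groups of 4 rats (22 named members, each sex), 3 held a rat whose gap to the nearest other was large against the range of its group, where about 1 in 20 groups, or 2.2, do so by chance. Sod3 was 4.97 in female replicate 4, against 5.22 to 5.26 in the other females. Without that rat the difference of Sod3 still passed. Sod2 was 1.56 in male replicate 4, against 2.01 to 2.06 in the other males. Gsta5 was 5.17 in male replicate 3, against 5.38 to 5.39 in the other males.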

How the results depend on the processing

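Of 21 alternative settings, 8 of them leaving out a rat, Sod3, Gsta6, Gpx8 and Gsta1 kept their direction and passed in 21. Gsta3 passed in 20 and reversed with its further probe (-0.55). The members higher in males numbered 7 with quantile normalization, the authors' log2 values, normexp with quantile normalization, and an intensity trend with a robust prior, and 3 to 6 when a rat was left out. Those higher in females numbered 4 with normexp and quantile normalization, 5 with the trend and robust prior, and 2 to 4 when a rat was left out (4 without female replicate 4). With a log2 fold-change of 1 as well, 1 member was higher in females with normexp, with all 8 arrays required and with the trend and robust prior (Nqo1) and with array weights (Sod3); leaving out a rat gave 0 to 1 in females and 1 to 2 in males (2 without female replicate 1, which adds Gpx2). Other pathway genes higher in males numbered 5 with the replicate block, 4 with the slide column as a block and 6 to 9 when a rat was left out (6 without female replicate 2); those higher in females numbered 5 without a filter, 6 with the slide column as a block and 4 to 11 when a rat was left out (4 without female replicate 1 or male replicate 3). Leaving out rats turned Sod1 (range -0.0825 to 0.0984; below 0 without female 1 or 4 or male 1 or 2) and Gpx6 (range -0.38 to 0.44; below 0 without female 4 or male 1), none of which passed. The cause of these changes was not tested, except that leaving out a rat leaves fewer samples. Replicate numbers did not pair the rats (correlation of same-numbered rats -0.01 to 0.13, of the other 12 pairs -0.19 to 0.12), and with the replicate block 5 members passed (3 higher in males, 2 in females), Gstt2 being lost. The median of all probes shifted by less than 0.1 between scalings (-0.05 to 0.00).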
